A study of Mus musculus with 6 samples.

Results

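Immediate early genes are transcribed within minutes of a stimulus, without new protein synthesis. The 10 genes described here are Fos, Fosb, Jun, Junb, Egr1, Atf3, Nr4a1, Ier2, Ier3 and Dusp1, immediate early genes that cell handling can induce. These genes and the gene lists below were chosen with earlier results of these data known, so their counts are a description. All 10 are among the 19938 genes that had a probe set with a single gene symbol, each through exactly 1 such probe set, and all 10 were bright enough to be among the 13925 genes tested. Their RNA was measured in medullary epithelial cells of the thymus, which present the proteins of other organs to maturing T cells. One group was 3 mice labelled Aire KO (Aire-/-(B6xNOD)F1) and the other 3 mice labelled Aire WT ((B6xNOD)F1), all of 4 to 6 weeks and all without further treatment named in the labels. Each mouse gave its own sample. Cells of both groups were freed with collagenase and dispase, sorted straight into Trizol as MHC class II high cells with intermediate Ly51 and no CD45, and their RNA was amplified in 2 rounds before hybridisation. The labels give 1 isolation protocol for all mice and no handling time for any of them.

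In the classical pathway, growth factors, stress and calcium act through the ERK, JNK and p38 kinases on factors already bound to the promoters, mainly serum response factor with its Elk partners and CREB. The first wave of products includes transcription factors (the Fos and Jun proteins, which pair as AP-1, and Atf3, Egr1 and the Nr4a receptors) and feedback inhibitors such as the phosphatase Dusp1 and the RNA-decay protein Zfp36, and most of these messages are short-lived. Warm enzymatic digestion of tissue is a known inducer of this programme, so the levels below are those of cells after digestion and sorting.

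Every value is a log2 RMA intensity, and each difference is the Aire KO mean minus the Aire WT mean with its SE from limma. The probe set of Aire read 12.38, 12.41 and 12.42 in the mice labelled Aire KO, against 12.00, 11.92 and 11.99 in the mice labelled Aire WT. Aire was thus higher by 0.44 in the mice labelled KO (SE 0.08, 3 mice a group, limma adjusted p = 0.0017). The deleted part of Aire is not named in the labels and the probe set may lie outside it, so this signal checks nothing about the genotypes, and the groups keep their labels as names. Array medians lay between 92.9 and 98.2 intensity units, and across tested genes the arrays correlated at 0.991 to 0.993 within Aire KO, 0.986 to 0.994 within Aire WT and 0.941 to 0.961 between the groups. In bulk samples, fewer cells expressing a gene and less RNA per cell cannot be told apart.

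Of the 10 immediate early genes, 8 fell in the Aire KO cells and 0 rose by limma at an adjusted p under 0.05 (8 and 0 also at an unadjusted p under 0.05, and with trended, robust variances). Fos, Fosb, Jun, Atf3, Nr4a1, Ier2, Ier3 and Dusp1 fell, by 1.20- to 1.70-fold, and Junb and Egr1 did not pass. Among all tested genes, 14.1% fell and 12.0% rose. In 9 of the 10 every Aire KO mouse lay below every Aire WT mouse, against 20.5% of all tested genes. The median difference of the 10 was -0.43, and that of all tested genes 0.02. None of the falls was shown to be larger than 0.5 on the log2 scale: with limma's treat at that minimum change 0 of the 10 passed (1 at an unadjusted p under 0.05, Nr4a1).

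**Figure D1:**
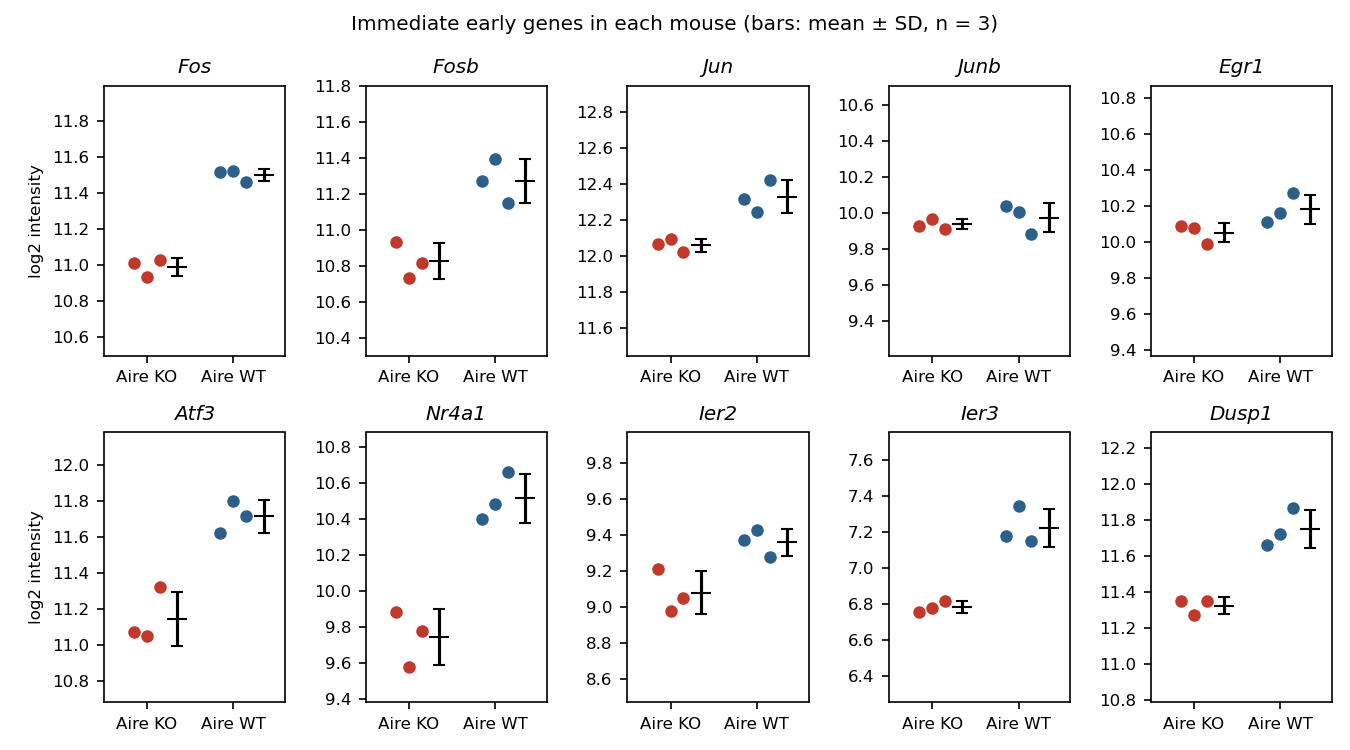
Log2 intensity of each immediate early gene in the 3 Aire KO mice (left, red) and the 3 Aire WT mice (right, blue), with the mean and SD as black bars; every panel spans the same height on the log2 scale. The groups overlap for Junb alone, and the gap between them is widest for Nr4a1.

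Fos and Fosb encode the Fos partners of AP-1. Fos read 11.01, 10.93 and 11.03 in Aire KO mice, against 11.52, 11.52 and 11.46 in Aire WT mice. All 3 Aire KO mice lay below all 3 Aire WT mice, and the spread within each group was a small part of the gap. The means were 10.99 ± 0.05 in Aire KO and 11.50 ± 0.03 in Aire WT (SD, n = 3), a 1.42-fold fall (-0.51, SE 0.08, limma adjusted p = 0.00065). Fosb read 10.93, 10.74 and 10.82 in Aire KO mice, against 11.28, 11.40 and 11.15 in Aire WT mice. The groups did not overlap, and Fosb fell 1.36-fold (-0.45, SE 0.09, limma adjusted p = 0.0047).

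The proximal promoters of 4 of the genes are printed, 3 of genes that fell and that of Junb, which did not pass, because each holds the binding core of CREB and its relatives. Calcium and stress signals are known to reach immediate early genes through these factors. Each is the 250 bases before the gene start in RefSeq's GRCm38.p6 annotation, 5′ to 3′ on the gene's strand. Capitals mark the core TGACG and the variant TGCGTCA on either strand. Fos lies at chr12:85473640-85473889 (plus strand), Nr4a1 at chr15:101266596-101266845 (plus), Dusp1 at chr17:26508473-26508722 (minus) and Junb at chr8:84978749-84978998 (minus).
Fos: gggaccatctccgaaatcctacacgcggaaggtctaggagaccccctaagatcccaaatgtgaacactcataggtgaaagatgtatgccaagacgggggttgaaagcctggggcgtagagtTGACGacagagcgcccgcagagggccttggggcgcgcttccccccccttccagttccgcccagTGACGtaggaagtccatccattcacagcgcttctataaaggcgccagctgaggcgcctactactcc
Nr4a1: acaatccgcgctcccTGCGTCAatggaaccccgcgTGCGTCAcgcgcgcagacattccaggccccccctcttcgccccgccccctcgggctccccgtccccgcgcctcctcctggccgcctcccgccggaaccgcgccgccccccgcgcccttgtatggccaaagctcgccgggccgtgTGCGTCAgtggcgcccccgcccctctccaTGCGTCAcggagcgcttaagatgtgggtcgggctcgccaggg
Dusp1: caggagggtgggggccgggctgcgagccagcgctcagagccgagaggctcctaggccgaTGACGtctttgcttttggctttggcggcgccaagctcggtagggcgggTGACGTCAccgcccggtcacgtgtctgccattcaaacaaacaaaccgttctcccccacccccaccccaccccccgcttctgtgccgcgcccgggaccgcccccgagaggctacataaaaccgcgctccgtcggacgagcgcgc
Junb: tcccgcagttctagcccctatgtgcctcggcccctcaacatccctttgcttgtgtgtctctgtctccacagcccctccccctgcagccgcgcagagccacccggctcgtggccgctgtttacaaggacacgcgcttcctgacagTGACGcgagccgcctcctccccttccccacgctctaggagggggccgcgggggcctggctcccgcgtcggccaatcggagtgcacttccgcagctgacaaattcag

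RefSeq windows were matched for 8 of the 10 genes: Fos, Fosb, Jun, Junb, Atf3, Nr4a1, Ier3 and Dusp1. The core TGACG, searched on both strands, stood in 6 of these 8 windows (Fos, Fosb, Junb, Atf3, Nr4a1 and Dusp1), against 17.9% of 27025 RefSeq windows of the same length. Junb, which did not pass the test, holds the core, and Jun and Ier3, which fell, do not. The full palindrome TGACGTCA, which contains the core on both strands, stood in Dusp1 alone, 143 to 136 bases before the start, and in 1.62% of all windows. Nr4a1 held TGCGTCA at 4 places and Fosb at 1, and 1.78% of all windows held it; this variant, which also overlaps the core, was added to the search after the sequences were seen. The AP-1 site TGANTCA stood in 0 of the 8 windows and 6.87% of all windows, and the serum response factor site (CArG box) in 0 of 8 and 1.40%. TATAAA stood in Fos alone of the 8 and in 13.0% of all windows. These are matches of letters in a short window, not measured binding. Sites farther before the start, and the promoters of Egr1 and Ier2, were not searched. Other variants of the core were not searched either, among them TGACATCA, which the Jun window holds.

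Among the Jun genes the values differed from member to member. Jun, the main partner of Fos, read 12.07, 12.10 and 12.02 in Aire KO mice, against 12.32, 12.25 and 12.43 in Aire WT mice. The groups did not overlap, and Jun fell 1.20-fold (-0.27, SE 0.08, limma adjusted p = 0.034). That call rested on the full set of arrays: it was lost without any 1 of 5 of the 6 mice, leaving out Aire WT replicate 2 being the exception (differences of -0.31 to -0.22, adjusted p = 0.037 to 0.11). Junb, a Jun relative, read 9.93, 9.97 and 9.91 in Aire KO mice, against 10.04, 10.01 and 9.88 in Aire WT mice. The groups overlapped, since Aire WT replicate 3 was the lowest of all 6. Its difference was -0.04 with a 95% interval of -0.22 to 0.14 (limma adjusted p = 0.76), so a fall as large as that of Jun lay outside that interval, but whether the differences of Jun and Junb are themselves unequal was not tested.

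Atf3, a stress-induced partner of AP-1 proteins, read 11.07, 11.05 and 11.32 in Aire KO mice, against 11.62, 11.80 and 11.72 in Aire WT mice. Aire KO replicate 3 stood above its group, and still below every Aire WT mouse. The means were 11.14 ± 0.15 in Aire KO and 11.71 ± 0.09 in Aire WT (SD, n = 3), a 1.48-fold fall (-0.57, SE 0.10, limma adjusted p = 0.0013). Egr1, a zinc-finger factor that serum response factor controls, read 10.09, 10.08 and 9.99 in Aire KO mice, against 10.11, 10.16 and 10.27 in Aire WT mice. The groups did not overlap, but the gap between the nearest mice was small. Its difference of -0.13 (95% interval -0.31 to 0.05, limma adjusted p = 0.27) did not pass.

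Nr4a1, an orphan nuclear receptor and a reporter of antigen receptor signalling in T cells, had the largest difference of the 10. It read 9.88, 9.58 and 9.78 in Aire KO mice, against 10.40, 10.48 and 10.66 in Aire WT mice. The highest Aire KO mouse lay well below the lowest Aire WT mouse. The means were 9.75 ± 0.16 in Aire KO and 10.52 ± 0.14 in Aire WT (SD, n = 3), a 1.70-fold fall (-0.77, SE 0.10, limma adjusted p = 0.00025). Of all tested genes, 3.12% had a difference as low as that of Nr4a1 or lower.

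Ier2 and Ier3 are immediate early response genes, and Ier3 is known for its role in cell survival. Ier2 read 9.21, 8.97 and 9.05 in Aire KO mice, against 9.37, 9.43 and 9.28 in Aire WT mice. The groups came close, at Aire KO replicate 1 and Aire WT replicate 3, but did not overlap, and the fall was 1.21-fold (-0.28, SE 0.09, limma adjusted p = 0.040). Leaving out Aire KO replicate 2 or 3 or Aire WT replicate 1 or 2 ended that call (differences of -0.23 to -0.28, adjusted p = 0.090 to 0.12). Ier3 read 6.76, 6.78 and 6.82 in Aire KO mice, against 7.18, 7.35 and 7.15 in Aire WT mice. The Aire KO mice lay within a narrow band below all Aire WT mice, and Ier3 fell 1.36-fold (-0.44, SE 0.08, limma adjusted p = 0.0028). Ier3 was the member closest to the intensity filter of 5.97.

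Dusp1, a phosphatase that switches off the p38, JNK and ERK kinases, read 11.35, 11.27 and 11.35 in Aire KO mice, against 11.66, 11.72 and 11.87 in Aire WT mice. The Aire KO mice stood together below all Aire WT mice. Its means were 11.32 ± 0.05 in Aire KO and 11.75 ± 0.11 in Aire WT (SD, n = 3), a 1.34-fold fall (-0.43, SE 0.09, limma adjusted p = 0.0037).

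**Figure D2:**
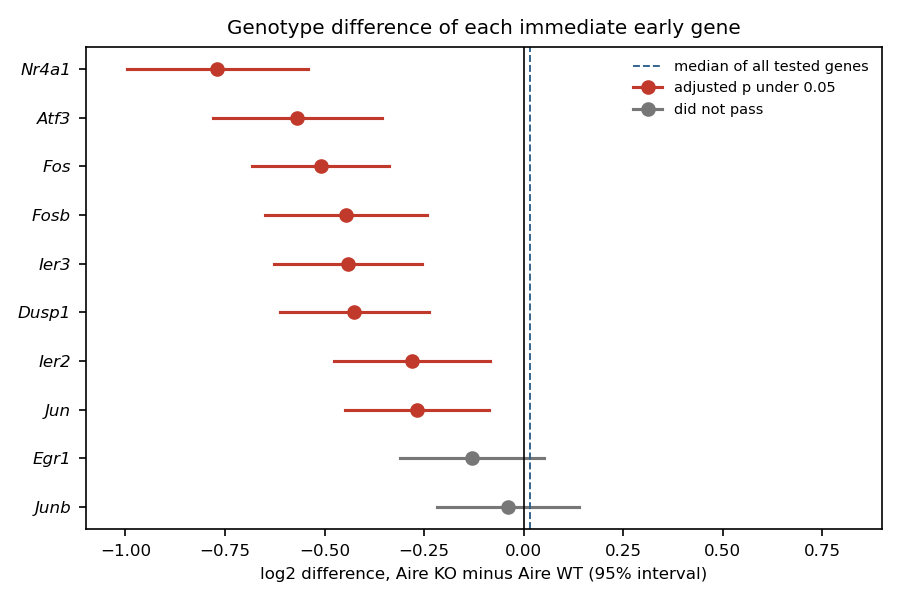
Difference in log2 intensity (Aire KO minus Aire WT) of each immediate early gene with its 95% interval from limma, largest fall at the top; red marks genes that passed, grey those that did not, and the dashed line is the median of all tested genes. Nr4a1 stands lowest at -0.77, and the intervals of Egr1 and Junb cross 0.

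The mice of a group differed little in these genes. SDs within Aire KO ran from 0.03 to 0.16 and within Aire WT from 0.03 to 0.14. Their medians were 0.05 in Aire KO and 0.09 in Aire WT, and over all tested genes 0.09 in Aire KO and 0.11 in Aire WT. The mean of the 10 genes was 10.23, 10.15 and 10.21 in the Aire KO mice, against 10.55, 10.61 and 10.59 in the Aire WT mice. Aire KO replicate 2 was the lowest of its group in 6 genes and the highest in 2, and Aire WT replicate 3 was the lowest of its group in 5 and the highest in 4. With 1 mouse left out in turn, the count that fell was 6 or 7 of 10, and Fos, Fosb, Atf3, Nr4a1, Ier3 and Dusp1 passed each time.

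Relatives of the members, grouped by family after their values were seen, fell in some families and not in others. Over all tested genes 14.1% fell and 12.0% rose. In the Fos family 4 of 4 fell: beside Fos and Fosb, Fosl1 read 8.17, 7.76 and 8.12 in Aire KO mice, against 8.47, 8.46 and 8.44 in Aire WT mice (-0.44, SE 0.11, limma adjusted p = 0.011). Fosl2 fell by 0.35 (adjusted p = 0.016), and its call was lost without Aire KO replicate 1 (adjusted p = 0.076) or Aire WT replicate 2 (0.052). All 3 Nr4a receptor genes fell. Nr4a3 read 7.48, 7.18 and 7.18 in Aire KO mice, against 7.78, 7.77 and 8.01 in Aire WT mice (-0.57, SE 0.11, adjusted p = 0.0024). Nr4a2 fell by 0.35 (adjusted p = 0.016), and not when Aire KO replicate 3 was left out (adjusted p = 0.063).

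Of the 4 Egr genes 0 passed (limma, also 0 at an unadjusted p under 0.05 and with trended, robust variances), with differences between -0.13 and 0.08. Jund, the remaining Jun gene, stood at -0.17 (adjusted p = 0.26) and did not pass. Among the Ier genes, Ier5 (0.08) and Ier5l (0.24) did not pass either. In the Dusp family of kinase phosphatases 5 of 7 fell, namely Dusp1, Dusp2, Dusp5, Dusp6 and Dusp8, and Dusp4 rose by 0.30 (SE 0.08, adjusted p = 0.019). Dusp2 lost its call in 4 of the 6 fits with 1 mouse left out (adjusted p = 0.070 to 0.12) and with the replicate number as a block (0.057), and Dusp4 in 3 (0.060 to 0.073). The Zfp36 genes, whose proteins speed the decay of AU-rich messages such as those of Fos and cytokines, fell in 3 of 3. Zfp36 read 10.99, 10.83 and 10.95 in Aire KO mice, against 11.27, 11.35 and 11.42 in Aire WT mice (-0.43, SE 0.08, adjusted p = 0.0036). Zfp36l1 fell by 0.35. Zfp36l2 fell by 0.34, and its call was lost without any 1 Aire KO mouse (adjusted p = 0.051 to 0.071). Of 7 Atf genes Atf3 fell, Atf5, a factor of the amino acid and mitochondrial stress response, rose by 0.36 (adjusted p = 0.0088), and 5 did not pass.

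**Figure D3:**
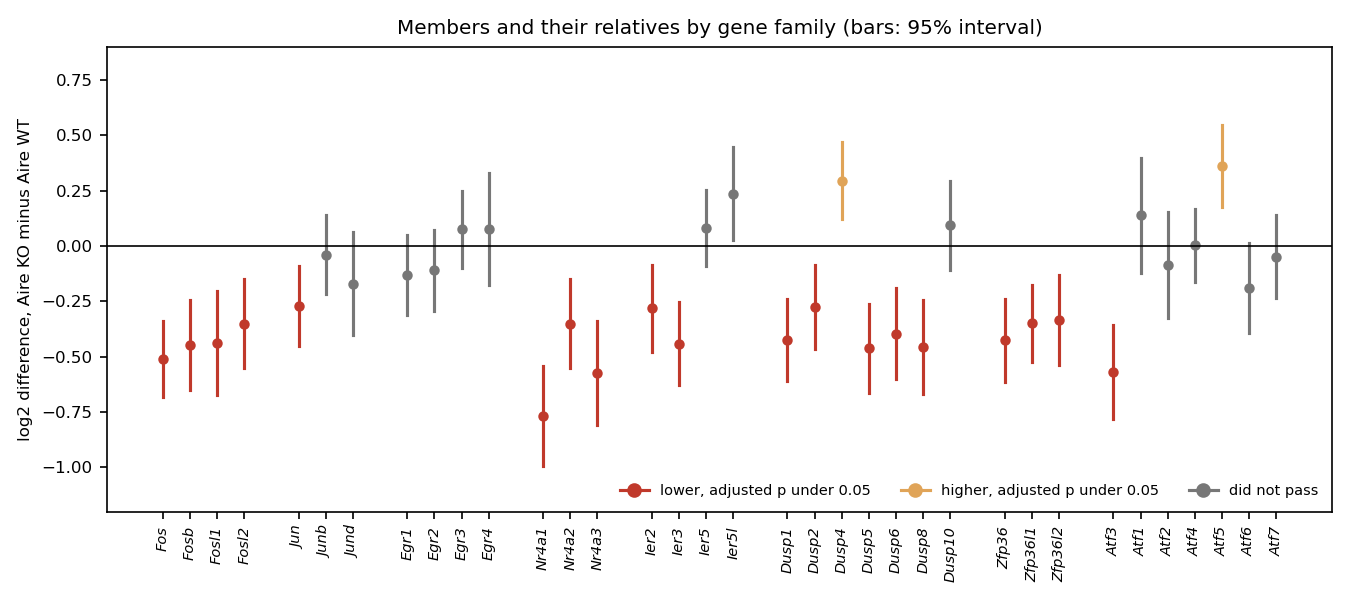
Difference in log2 intensity (Aire KO minus Aire WT) with 95% intervals for the immediate early genes and their relatives, grouped by family; red marks genes that passed as lower, ochre as higher, grey those that did not pass. All Fos, Nr4a and Zfp36 genes lie below 0 and passed, and the 4 Egr genes lie near 0.

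Beyond the 10, 22 of the 37 tested feedback and secreted genes of the immediate early response fell and 3 rose, with a median difference of -0.35. That is 59.5% and 8.11%, where 14.1% and 12.0% of all tested genes fell and rose. Polo-like kinase Plk2 had the lowest adjusted p of the list: it read 8.21, 8.29 and 8.46 in Aire KO mice, against 9.07, 9.10 and 9.49 in Aire WT mice, a 1.87-fold fall (-0.90, SE 0.12, limma adjusted p = 0.00022). The Aire KO mice lay far below the Aire WT mice. Nfkbiz, an inducible cofactor of NF-κB, fell by 0.71, the repressor gene Tgif1 by 0.59, the kinase gene Sgk1 by 0.66, the EGF receptor ligand gene Hbegf by 0.69 and Plk3 by 0.69 (adjusted p = 0.00038 to 0.00061). The 3 that rose were Dusp4 and the ERK pathway inhibitors Spry2 (0.33) and Spry4 (0.46), both Spry genes named after their values were seen. Without Aire KO replicate 1 or Aire KO replicate 3 the count that rose was 1.

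Other immediate early transcription factor genes moved both ways: 7 of 28 fell and 3 rose, with a median of -0.06. As shares these were 25.0% and 10.7%, beside 14.1% and 12.0% of all tested genes. Klf5, an epithelial Krüppel-like factor, fell by 0.73 (SE 0.10, limma adjusted p = 0.00024), the inhibitors of basic helix-loop-helix factors Id3 and Id2 by 0.62 and 0.58, and the Notch target Hes1 by 0.46. Klf2 rose by 0.36 (adjusted p = 0.011). Without Aire KO replicate 1 the count that rose was 0 by limma (3 at an unadjusted p under 0.05), and Klf2 lost its call (adjusted p = 0.059). In the list of other AP-1 and ATF family genes 2 of 19 fell (1 without Aire WT replicate 2) and 2 rose, near the share of all tested genes. Those that fell were Fosl1 and Fosl2, and those that rose were Atf5 and the lymphoid AP-1 partner Batf3 (0.64, SE 0.09, adjusted p = 0.00030).

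In the signalling chain above the immediate early genes, 6 of 23 tested genes fell and 2 rose, with a median of -0.11. These shares were 26.1% and 8.7%, against 14.1% and 12.0% of all tested genes. Map2k1, which encodes an ERK-activating kinase, rose by 0.41 (SE 0.08, limma adjusted p = 0.0029). Elk4, a partner of serum response factor, fell by 0.41 (adjusted p = 0.0058), as did Nab1, a corepressor of Egr proteins, by 0.41 (0.0051). Another Elk gene, Elk3, named after its values were seen, rose by 0.29 (SE 0.10, limma adjusted p = 0.046). The kinase genes Rps6ka5, Mapkapk2 and Rps6ka3 fell by 0.35, 0.32 and 0.41, and each lost its call in at least 1 fit without an Aire KO mouse (adjusted p = 0.065 to 0.095), Rps6ka3 also without Aire WT replicate 3 (0.052). Srf itself stood at -0.18 (adjusted p = 0.18) and Creb1 at -0.17 (0.16), and both were named after their values were seen. The count that fell was 3 without Aire KO replicate 1 and 2 without Aire KO replicate 3. The count that rose was 1 without Aire KO replicate 1 or 2 or Aire WT replicate 2.

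Of 15 tested heat shock and chaperone genes, another group that handling stress can induce, 6 fell and 0 rose by limma. By comparison, 14.1% of all tested genes fell and 12.0% rose. The count that rose was also 0 at an unadjusted p under 0.05 and with trended, robust variances. The median difference of the 15 was -0.24. The small heat shock protein gene Hspb8 read 9.01, 9.18 and 9.34 in Aire KO mice, against 9.78, 9.81 and 9.92 in Aire WT mice (-0.66, SE 0.10, adjusted p = 0.00050). Dnajb4 fell by 0.58 (adjusted p = 0.00060) and Hspb1 by 0.46 (0.0076). Hsph1, Hmox1 and Hspd1 fell by 0.37, 0.32 and 0.27, and each lost its call in 4 of the 6 fits with 1 mouse left out. Hmox1 and Hspd1 also lost it with the replicate number as a block (adjusted p = 0.060 and 0.075), Hmox1 with arrays centred on the median (0.058), and Hspd1 with no intensity filter (0.053), another quantile normalization (0.052) and probe sets averaged within a gene (0.061). The count that fell was 3 without Aire KO replicate 1 or Aire KO replicate 3. Hspa8 stood at -0.04 and Hspa1a, which has a near-identical copy and is uncertain, at -0.03, both named after their values were seen and neither called.

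**Figure D4:**
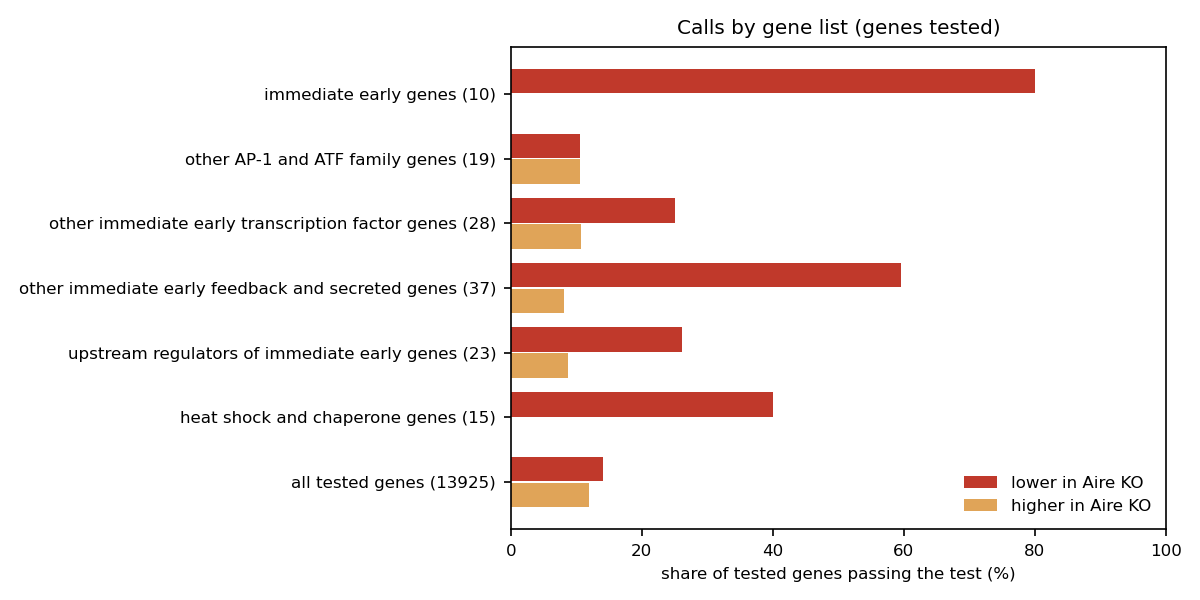
Share of the tested genes of each list that passed limma's test as lower (red) or higher (ochre) in Aire KO, with the number tested in brackets and all tested genes at the bottom. The immediate early genes reach 80.0% lower and the feedback and secreted genes 59.5%, where all tested genes reach 14.1%.

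The 5 tested genes outside the 10 whose values over the 6 arrays were most like the members' mean profile, each gene centred on its own mean, were Mapk6, Agps, Krt33a, Klk8 and Sele. The root mean square difference from that profile was 0.02 for Mapk6, an atypical MAP kinase, and 0.03 to 0.04 for the others. Mapk6 read 8.91, 8.87 and 8.91 in Aire KO mice, against 9.24, 9.34 and 9.28 in Aire WT mice, a difference of -0.39. Krt33a read 5.87, 5.81 and 5.90 in Aire KO mice, all under the intensity filter, against 6.14, 6.23 and 6.20 in Aire WT mice. It passed the filter through the Aire WT mice alone, so it had to differ in this direction. With 6 arrays and 13925 genes, close likeness of a few genes is a description only.

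Of the defining markers of the labelled cell type, all 11 medullary epithelial markers passed the intensity filter, and their summed intensity was 47101 to 49089 in Aire KO and 44487 to 45054 in Aire WT mice. Of these 11, 3 fell and 1 rose (27.3% and 9.09%, against 14.1% and 12.0% of all tested genes), with a median difference of 0.10. Epcam fell by 0.37, Krt5 fell by 0.84 and Krt14 fell by 0.44, and Aire rose. Cd80, H2-Aa and H2-Ab1 stood at 0.22, 0.20 and 0.20, with every Aire KO mouse above every Aire WT mouse, and did not pass. Fezf2 stood at -0.21, with every Aire KO mouse below every Aire WT mouse, and did not pass either. At an unadjusted p under 0.05 by limma, 4 of the 11 fell and 4 rose. The count that rose was also 4 with trended, robust variances and with an offset of 32. With 1 mouse left out, 1 to 3 fell and 1 rose.

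Markers of other cells moved in both directions, and T cell markers had more falls than rises. Dendritic cell and macrophage markers did so only through Adgre1 and Itgam, which passed the intensity filter through the Aire WT mice alone. These lists are short, and 14.1% of all tested genes fell and 12.0% rose. Of the thymocyte and T cell markers 2 of 8 tested, Cd3g and Ptprc, fell by limma (1 with trended, robust variances, and 1 to 3 of the 8 with 1 mouse left out). The summed intensity of the 10 on the array was 792 to 1079 in Aire KO against 1103 to 1852 in Aire WT mice. Cd3g, a subunit of the T cell receptor complex, read 7.08, 7.68 and 6.59 in Aire KO mice, against 8.18, 8.04 and 9.32 in Aire WT mice, highest in Aire WT replicate 3, and Cd3d and Dntt lay under the intensity filter.

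Of the dendritic cell and macrophage markers 3 of 8 tested fell and 1 rose, with a sum over 9 of 3533 to 3628 in Aire KO against 3698 to 4118 in Aire WT mice. With 1 mouse left out, 3 or 4 fell and 0 or 1 rose. Adgre1, the F4/80 antigen of macrophages, read 5.38, 5.33 and 5.32 in Aire KO mice, all under the intensity filter, against 6.90, 6.84 and 7.03 in Aire WT mice, and Itgam and Csf1r also fell. Itgam read 5.75, 5.51 and 5.38 in Aire KO mice, against 6.62, 6.77 and 7.12 in Aire WT mice, so Itgam and Adgre1 both passed the filter through the Aire WT mice alone, where they are high, and had to differ. Itgax lay under the filter in all 6. Of the B cell markers 2 of 2 tested rose and 2 were dim (sum over 4 of 480 to 508 in Aire KO and 423 to 439 in Aire WT). The dim Ms4a1 went the other way, at 4.70, 4.78 and 4.67 in Aire KO mice against 5.14, 5.05 and 5.38 in Aire WT mice. With no intensity filter, 1 of the 4 was lower and 1 higher by limma. Of the 2 tested with the filter, 0 or 1 rose when 1 mouse was left out, and 1 with the replicate number as a block. Cortical epithelial markers gave 1 fall and 1 rise of 4, with Psmb11 under the filter. Fibroblast markers gave 1 fall and 1 rise of 6, and their sums were 1873 to 2340 in Aire KO and 1629 to 1878 in Aire WT. Of 3 tested endothelial markers 0 passed by limma, and 1 fell at an unadjusted p under 0.05. The 1 tested red blood cell marker did not pass. The part of these markers in the falls of the immediate early genes was not tested. Without Aire WT replicate 3, the mouse with the highest T cell signal, the median difference of the 10 genes was -0.42. The other Aire WT mice still read higher than every Aire KO mouse in Cd3g (8.18 and 8.04), Adgre1 and Itgam. Leaving out that mouse therefore could not show the part of these markers.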

How the data were processed

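The deposited values are probe set intensities on the linear scale, made by the authors with RMA per the submitters' processing notes. RMA corrects background, gives every array the same distribution and combines the probes of a set, so a change in total RNA is hidden and folds of dim genes are compressed. The sources used here name neither its version nor a genome build. The number of arrays limits the precision.

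The log2 of each intensity was taken with no offset. Of 35512 probe sets, 21789 had 1 gene symbol in the platform annotation, 1621 had several and 12102 had none; the last 2 kinds were left out. Entrez identifiers of 21698 matched RefSeq's GRCm38.p6 gene table. Each gene took its probe set of highest mean and was tested if it exceeded 5.97, the 40th percentile over the table, on 3 or more of the 6 arrays. Genotype was the only factor in limma 3.58.1 (lmFit and eBayes, two-sided, R 4.3.3), with Benjamini-Hochberg adjustment over all 13925 genes and a threshold of 0.05. The script was tested on simulated data. Figures used matplotlib 3.10.9.

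The members and lists were chosen with earlier results of these data known. Named are Aire, all 10 members, up to 6 called genes a list, lowest adjusted p first, and the 5 genes of most similar profile. Families and any other gene were named after their values were seen. Of the listed genes without a 1-symbol probe set no value is given. Alternatives covered the filter, normalization, offset, probe set rule, variance model, array weights, treat, the replicate number as a block and each mouse left out.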

Additional observations from a re-analysis of the deposited data

How the results depend on the processing

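The direction of all 10 immediate early genes held under the 17 alternatives wherever they were tested, and 148 of 169 of their values kept their side of the threshold. With limma's treat at a log2 change of 0.5, the count that fell was 0 of the 10 (1 at an unadjusted p under 0.05), and 0 of the other AP-1 and ATF, transcription factor, feedback, upstream and heat shock genes passed in either direction (at an unadjusted p under 0.05, 4 feedback and 1 transcription factor gene passed as lower and 0 as higher). Of the marker lists, 2 dendritic cell and macrophage markers, Adgre1 and Itgam, passed treat as lower (2 at an unadjusted p under 0.05, when 1 medullary, 1 cortical and 1 T cell marker were also lower) and 0 markers as higher. Adgre1 and Itgam passed the intensity filter through the Aire WT mice alone, so both had to be lower in Aire KO, and their passing adds no support. Over all tested genes treat left 338 lower and 118 higher. Jun and Ier2 also lost their calls when arrays were centred on the median (adjusted p = 0.053 and 0.052) and with the replicate block (0.071 and 0.066), which left 6 of 10 lower. Over all alternatives their adjusted p ran from 0.0091 to 1.0 for Jun and from 0.015 to 1.0 for Ier2, the highest under treat. Same-numbered mice did not deviate together (correlations of deviations of -0.018, -0.209 and -0.056, and none of the mice was closest to its own number), so the numbers were not taken as pairs. Upstream genes that rose numbered 1 with no intensity filter and 1 with the replicate block.

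With 1 mouse left out, the number lower over all genes ran from 1364 to 1877 and the number higher from 1052 (without Aire KO replicate 1) to 1547. The ranges were 6 to 7 lower for the immediate early genes, 1 to 2 lower for other AP-1 and ATF genes, 5 to 7 lower and 0 to 3 higher for other transcription factor genes, 18 to 22 lower and 1 to 3 higher for feedback and secreted genes, 2 to 6 lower and 1 to 3 higher for upstream regulators, and 3 to 7 lower for heat shock genes. Among uncalled relatives the sign turned for Egr4 (-0.0169 with array weights, and -0.0604 to 0.1488 with 1 mouse left out), Atf2 (-0.1683 to 0.0072 with 1 mouse left out) and Atf4 (-0.007 with another quantile normalization, and -0.0083 to 0.0167 with 1 mouse left out). The cause of these changes was not tested.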
